A study of Strongylocentrotus purpuratus with 6 samples.

Results

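Dlx and Nk1 are homeobox genes of the purple sea urchin Strongylocentrotus purpuratus, and their loci were examined for RNA polymerase II (Pol II) in 20 h embryos. The loci were defined by the cis-regulatory modules (CRMs) tested for each gene in reporter constructs, 8 named Dlx and 13 named Nk1, together 21 of the 389 CRMs of the study. For each gene the span from the smallest start to the largest end of its CRMs was extended by 2 kb on each side, and every Pol II peak overlapping that window by 1 bp or more was taken. The windows held 20 peaks at Dlx and 91 at Nk1, which is 111 of the 554846 peaks of the genome. The peaks came from 3 Pol II ChIP samples and 3 matched input samples of hatching blastula embryos, where 1 ChIP and 1 input sample shared each of 3 extracts. No genotype or treatment separated these samples, all of which were formaldehyde-fixed whole embryos, so every embryonic territory is averaged. ChIP used antibody 8WG16, which recognizes the C-terminal repeat of Pol II.

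The authors combined the replicates and deposited 1 list of peak positions without scores. A value below is therefore a number of peaks or a length in bp from that pooled list. No spread between replicates exists for it, read depth at the peaks is not part of the list, signal profiles were not used here, and no test was made. The list has a median peak length of 217 bp, with quartiles of 132 and 370 bp, and a median gap to the next peak of 557 bp.

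Homeobox genes encode transcription factors that bind DNA through a homeodomain. Dlx is the relative of Drosophila Distal-less, which patterns appendages, and in sea urchin embryos it is known as a regulatory gene of the aboral ectoderm. Nk1 belongs to the NK class of homeobox genes and is related to Drosophila slouch, which specifies the identity of muscle founder cells. Pol II gathers at promoters, spreads over the bodies of transcribed genes and is also found at enhancers, so a Pol II peak by itself does not tell these apart. Both symbols occur in the RefSeq gene table of the assembly Spur_5.0 as protein-coding genes, Dlx with gene identifier 577423 and Nk1 with 575213. That assembly is not version 3.1, on which the peaks lie, so exons, introns, UTRs and start sites were not placed under the peaks. The letters U, I and D in the CRM names were read as upstream, intronic and downstream. By these letters, Dlx runs towards higher coordinates of its scaffold and Nk1 towards lower ones.

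At Dlx, Pol II peaks were few and long and covered most of the window. The window on Scaffold119 from 783208 to 824916 is 41708 bp long, and peaks covered 34535 bp of it, or 82.8%. The peaks had a median length of 746.5 bp and ranged from 69 to 12820 bp. The longest, Scaffold119:785651-798470, held 37.1% of all covered bases of the window. It began within the upstream CRMs and ended downstream of the second intronic CRM. In the whole list, 101 peaks (0.0182%) are at least as long as this one, and none of the 908 peaks on Scaffold119 is longer.

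The next peak in size, Scaffold119:800013-806781, was 6769 bp long and lay for the most part between the last intronic and the first downstream CRM. It was separated by 27 bp from the third, Scaffold119:806809-810435, which was 3627 bp long. These 3 peaks carried 67.2% of the covered bases. A peak of 2435 bp, Scaffold119:811179-813613, reached into Dlx_Dr_02, and a peak of 1003 bp, Scaffold119:816422-817424, touched no CRM. Beyond it, towards the downstream end, no peak reached 1000 bp. Peaks of at least 1000 bp thus made up 5 of 20 (25%) at Dlx, and 4.71% of all peaks in the list. Some other loci of the study had larger shares of such peaks, among them FoxJ1 (66.7%), Not (50%) and Chordin (41.2%). The 19 gaps between neighbouring peaks had a median of 391 bp and did not exceed 827 bp.

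At Nk1, Pol II peaks were many, short and spread over a longer region. The window on Scaffold1564 from 136245 to 227373 is 91128 bp long, and peaks covered 33738 bp, or 37.0%. The covered length was thus close to that of Dlx, in a window more than 2 times as long. Peak lengths had a median of 236 bp, with quartiles of 156.5 and 467 bp, near those of the whole list. Of the 91 peaks, 6 (6.59%) reached 1000 bp, beside the 4.71% of the whole list. The longest, Scaffold1564:201097-203438, was 2342 bp long and held 6.94% of the covered bases. It started in the interval between the first intronic and the first upstream CRM and ended inside the overlapping modules Nk1_Uf_01 and Nk1_Uf_02. A peak of 1618 bp, Scaffold1564:189599-191216, lay between Nk1_If_04 and Nk1_If_03 and shared 39 bp with the former.

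The other 4 peaks of at least 1000 bp at Nk1 were Scaffold1564:184619-185870 at the border of the downstream and intronic CRMs (1252 bp), Scaffold1564:214242-215384 between the upstream CRMs (1143 bp), Scaffold1564:188467-189584 in Nk1_If_04 (1118 bp) and Scaffold1564:145297-146349 in Nk1_Df_04 (1053 bp). Together the 3 longest peaks carried 15.4% of the covered bases, against 67.2% at Dlx. The gaps had a median of 356 bp, shorter than at Dlx, but the longest was 3378 bp and lay mainly in Nk1_Df_03. Peaks shorter than the 50 bp reads numbered 3 of 91 at Nk1 and 0 of 20 at Dlx, where 3.87% of the whole list are that short.

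**Figure D1:**
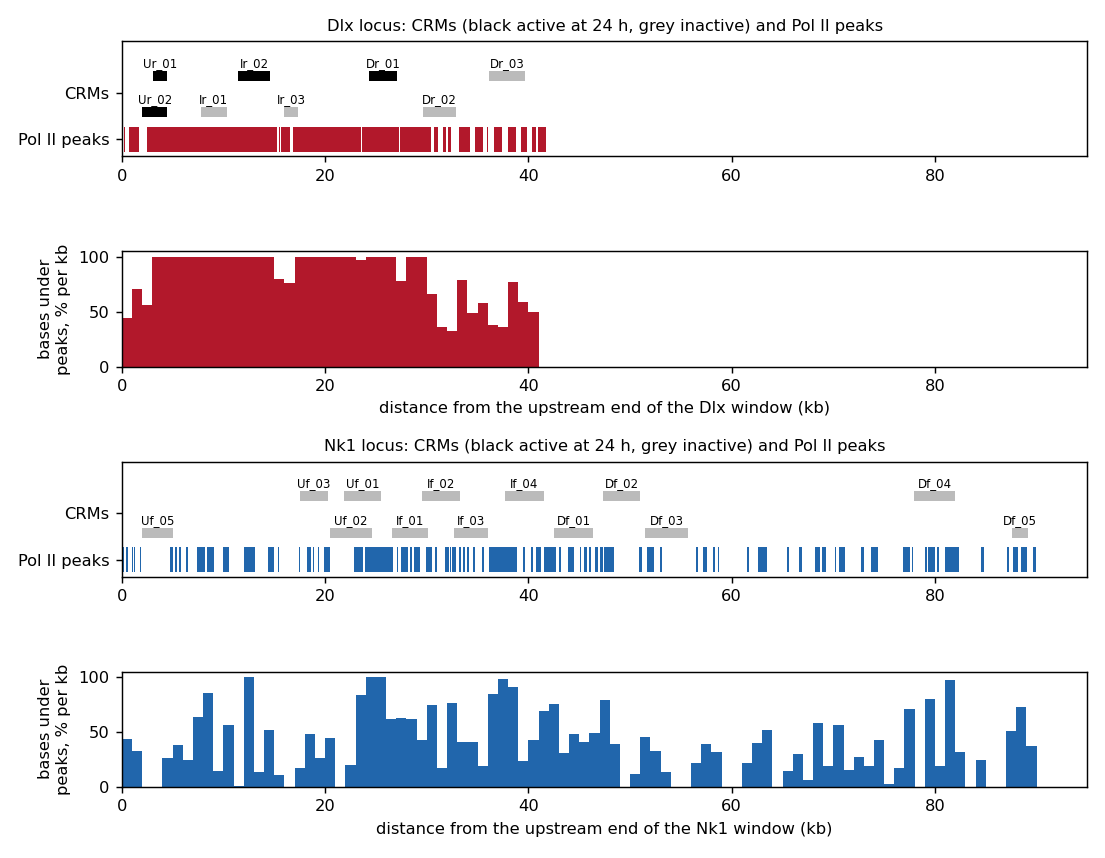
Pol II peaks and CRMs at Dlx (red) and Nk1 (blue), drawn from the upstream to the downstream end of each window in kb on the same scale, with the percent of bases under peaks in each complete 1 kb bin below. Peaks at Dlx are nearly continuous from 2.44 to 30.4 kb and include the peaks of 12820 and 6769 bp, whereas the longest peak of Nk1 is 2342 bp.

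In consecutive bins of 1 kb from the upstream end, 23 of 41 bins at Dlx were fully covered and none was empty. At Nk1, 3 of 91 bins were fully covered and 15 were empty. The median bin was covered over 100% at Dlx and over 32.7% at Nk1.

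The upstream modules of Dlx overlap each other. Dlx_Ur_01 (Scaffold119:786307-787665) lies inside Dlx_Ur_02 (Scaffold119:785208-787666), and the shared 1358 bp were covered entirely by the peak of 12820 bp. Dlx_Ur_02 adds 1100 bp of its own, of which 658 bp (59.8%) were covered, since the peak starts inside it after an uncovered stretch of 442 bp. The whole module was covered over 82.0%. These modules therefore share a peak and most of their sequence and are not separate observations.

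The first intronic modules of Dlx lay under the same peak. Dlx_Ir_01 (Scaffold119:790968-793526) and Dlx_Ir_02 (Scaffold119:794670-797798) were each covered over 100% of their length. The peak extended 672 bp past the end of Dlx_Ir_02. Dlx_Ir_03 (Scaffold119:799178-800534) held 601 bp of a peak of 959 bp and 522 bp of the peak of 6769 bp, with a gap of 233 bp, and was covered over 82.8%.

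The downstream modules of Dlx were not alike. Dlx_Dr_01 (Scaffold119:807499-810316) was covered over 100% by the peak of 3627 bp, which reached 691 bp before and 119 bp beyond it. Dlx_Dr_02 (Scaffold119:812842-816116) held 4 peaks and was covered over 52.4%, with uncovered stretches of up to 526 bp. Dlx_Dr_03 (Scaffold119:819306-822916), the module farthest downstream, held 3 peaks and was covered over 53.6%. The longest of these 3 peaks was 772 bp. Dlx_Dr_02 and Dlx_Dr_03 were thus the least covered Dlx modules, and Dlx_Dr_01 was covered like the intronic ones.

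The upstream modules of Nk1 ranged widely. Nk1_Uf_01 (Scaffold1564:201889-205523) was covered over 69.3% and Nk1_Uf_02 (Scaffold1564:202754-206876) over 40.1%. They share 2769 bp, covered over 59.7% by the peak of 2342 bp and by 1 of 969 bp. The 865 bp that only Nk1_Uf_01 holds were fully covered, and the 1353 bp that only Nk1_Uf_02 holds had no peak. Nk1_Uf_03 (Scaffold1564:207112-209847) was covered over 37.6% by 6 peaks of which none held more than 390 bp of the module. The most distal module, Nk1_Uf_05 (Scaffold1564:222294-225373), had 276 bp under peaks, or 8.96%, and an uncovered stretch of 2697 bp. It was the least covered of the 21 modules. Coverage of the upstream modules was lower the farther a module lay from the intronic ones. This order holds for the modules alone, as the 12447 bp between Nk1_Uf_03 and Nk1_Uf_05 were covered over 37.7%.

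The intronic modules of Nk1 were covered to a more even degree. Nk1_If_01 (Scaffold1564:197279-200786) was covered over 51.8%, Nk1_If_02 (Scaffold1564:194137-197872) over 48.9%, Nk1_If_03 (Scaffold1564:191344-194649) over 36.3% and Nk1_If_04 (Scaffold1564:185884-189637) over 53.7%. Each was broken up by 5 to 7 peaks. Neighbours among the first 3 of these share sequence, 593 bp between Nk1_If_01 and Nk1_If_02 and 512 bp between Nk1_If_02 and Nk1_If_03, and with it 1 peak of 606 bp and 2 peaks of 205 and 461 bp. Nk1_If_04 held the only stretch over 1000 bp, the peak of 1118 bp.

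With peaks of any length counted, the downstream modules of Nk1 had the highest coverage at their far end. Nk1_Df_05 (Scaffold1564:138245-139835), the shortest module of Nk1 at 1590 bp, was covered over 72.6% by 3 peaks, the largest share among the Nk1 modules. These peaks held 616, 291 and 247 bp of it, and only that of 616 bp reaches 300 bp. With peaks of at least 300 bp, Nk1_Df_05 was thus below Nk1_Uf_01, which keeps its 69.3% from peaks of 2342 and 969 bp. Nor was it then ahead of Nk1_Df_04, which keeps 924 and 626 of its 3999 bp. Nk1_Df_04 (Scaffold1564:145425-149424) was covered over 47.7%, and Nk1_Df_01 (Scaffold1564:180981-184857), nearest to the introns, over 42.0%. Between them, Nk1_Df_02 (Scaffold1564:176406-180018) was covered over 28.6% and Nk1_Df_03 (Scaffold1564:171683-175867) over 18.8%, with uncovered stretches of 2492 and 2553 bp. Thus coverage of the downstream modules did not fall with each step in distance, as it did among the upstream modules.

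All 21 modules overlapped a Pol II peak, as did 98.5% of the 389 CRMs, so the presence of a peak did not tell the genes apart. The Dlx modules were covered over 83.8 ± 20.5% of their length (mean ± SD over 8 CRMs, median 91.4%) and the Nk1 modules over 42.8 ± 17.9% (13 CRMs, median 42.0%), where the median of all 389 CRMs was 68.8%. Each SD describes the spread over modules, some of which overlap each other, and is not an error of a gene. Without the longest peak of each locus the means were 36.1% at Dlx and 38.2% at Nk1. This change follows by construction, since 4 Dlx modules overlap only the peak of 12820 bp and lose all coverage without it. The Dlx modules that do not touch it were covered over 82.8% (Dlx_Ir_03), 100% (Dlx_Dr_01), 52.4% (Dlx_Dr_02) and 53.6% (Dlx_Dr_03). At least 50% of the length was covered in 8 of 8 Dlx modules and 4 of 13 Nk1 modules (4 and 3 without these peaks), and in 67.9% of all CRMs. The threshold falls among close values, as Nk1_If_01 lies just above it and Nk1_If_02 just below. Coverage was complete in 4 of 8 Dlx modules and 0 of 13 Nk1 modules, against 20.1% of all CRMs. A peak of at least 1000 bp was touched by 7 of 8 Dlx modules and 5 of 13 Nk1 modules, against 63.8% of all CRMs.

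Within position classes the genes differed as well. The upstream modules were covered over 82.0 to 100% at Dlx and 8.96 to 69.3% at Nk1, and the median of the 127 upstream CRMs of the other genes was 55.8%. Intronic modules were covered over 82.8 to 100% at Dlx and 36.3 to 53.7% at Nk1, beside a median of 91.1% over 159 intronic CRMs of the other genes. In these classes the ranges of Dlx and Nk1 did not overlap, but the upstream and 2 of the 3 intronic modules of Dlx have no peak other than that of 12820 bp. The upstream range of Dlx comes from nested sequence, as Dlx_Ur_01 lies inside Dlx_Ur_02. The intronic range of Dlx holds the median of the other genes, and that of Nk1 lies below it. Downstream modules did overlap, with 52.4 to 100% at Dlx and 18.8 to 72.6% at Nk1, beside a median of 57.5% over 82 CRMs. The intronic modules of Nk1, with a median of 50.3%, lay farthest below their class, since the upstream ones had a median of 38.8% and the downstream ones of 42.0%.

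**Figure D2:**
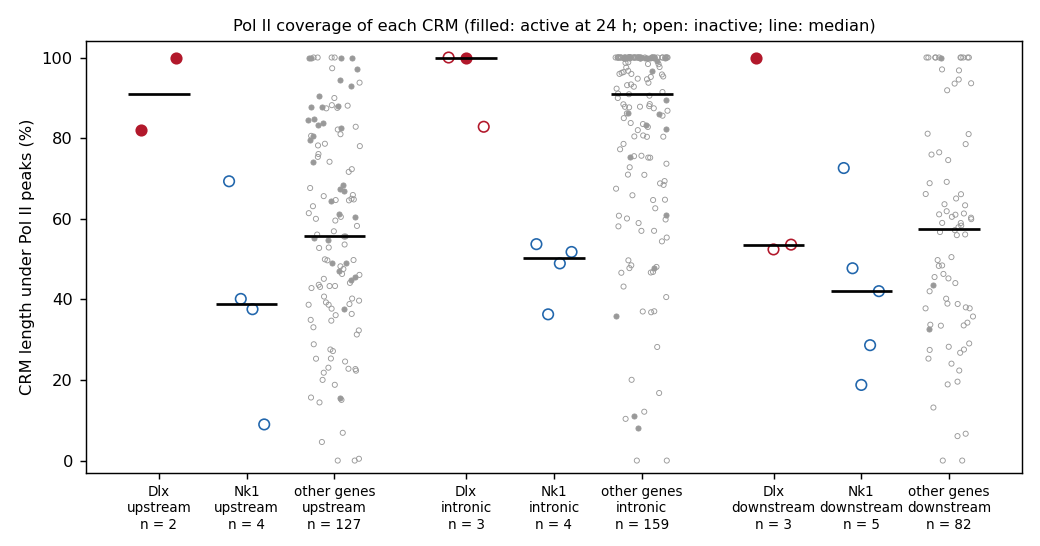
Percent of the length of each CRM under Pol II peaks, by position letter and gene, with each circle 1 CRM (filled if active at 24 h, open if inactive) and lines at medians. All intronic modules of Nk1 (36.3 to 53.7%) lie below those of Dlx (82.8 to 100%), while the downstream modules overlap.

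Sequence between the modules followed the same order. At Dlx, the 6 intervals between CRMs were covered over 90.4% of their 18507 bp, more than the CRMs themselves (79.6% of 19201 bp after merging overlaps). The intervals from Dlx_Ur_02 to Dlx_Ir_01 and from Dlx_Ir_01 to Dlx_Ir_02 were covered entirely, and the interval of 6965 bp from Dlx_Ir_03 to Dlx_Dr_01 over 99.6%. The interval between Dlx_Dr_02 and Dlx_Dr_03 had the lowest share, 58.6%. At Nk1, the 9 intervals were covered over 34.7% of 45871 bp and the CRMs over 40.6% of 41257 bp. Short intervals next to the introns were nearly full, with 98.4% of the 1103 bp between Nk1_If_01 and Nk1_Uf_01 and 98.6% of the 1027 bp between Nk1_If_04 and Nk1_Df_01. The interval of 22259 bp between Nk1_Df_04 and Nk1_Df_03 held 20 peaks and was covered over 26.3%, and the interval of 5590 bp between Nk1_Df_05 and Nk1_Df_04 over 13.9%. From the first to the last base of the intronic modules, peaks covered 95.5% at Dlx and 53.7% at Nk1.

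The reporter classes of the modules, taken from the CRM table as labels, differ between these genes. The classes are active and inactive, set by the study from reporter expression relative to the basal promoter. At 24 h, 4 of 8 Dlx modules (Dlx_Ur_01, Dlx_Ur_02, Dlx_Ir_02 and Dlx_Dr_01) and 0 of 13 Nk1 modules were in the active class, which holds 17.2% of all CRMs. Since Dlx_Ur_01 lies inside Dlx_Ur_02, the classes of these modules are not separate observations. At 12 h, 0 of the 21 modules were in the active class, which then holds 12.3% of all CRMs. The 4 active Dlx modules were covered over 95.5 ± 8.99% of their length (mean ± SD over CRMs) and the 4 inactive ones over 72.2 ± 23.3%. The active Dlx_Ur_01, Dlx_Ur_02 and Dlx_Ir_02 share the peak of 12820 bp. The modules of a class are therefore not independent, and the SDs are not errors of a class. The classes overlapped, because the inactive Dlx_Ir_01 lay entirely under the same peak of 12820 bp as the active Dlx_Ir_02 beside it. Likewise Dlx_Ir_03, inactive, at 82.8% exceeded Dlx_Ur_02, active, at 82.0%. Each active module met 1 peak only, and inactive ones met 1 to 4.

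The difference of 23.3 percentage points between these classes became -22.2 when the longest peak was left out. This change follows by construction, since 3 of the 4 active modules, and the inactive Dlx_Ir_01, overlap no other peak. Among the modules that do not touch that peak, the active Dlx_Dr_01 was covered over 100%. The inactive Dlx_Ir_03, Dlx_Dr_02 and Dlx_Dr_03 were covered over 52.4 to 82.8%. All Nk1 modules were inactive, so their coverage of 8.96 to 72.6% describes that class alone. In the other genes, the median coverage was 83.7% over 63 active CRMs and 65.9% over 305 inactive CRMs. The embryos for ChIP were of 20 h and the reporter classes are of 24 h, and whole embryos cannot show in which cells Pol II was bound.

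Both windows stood above their surroundings, Dlx by more. Outside the Dlx window, peaks covered 26.8% of Scaffold119 up to its last peak. The 20 kb next to the window were covered over 35.6% on the upstream side and 34.1% on the downstream side, against 82.8% within. Scaffold1564 was covered over 29.4% outside the Nk1 window, and the neighbouring 20 kb over 28.1% upstream and 21.1% downstream, against 37.0% within. On Scaffold1564, 3 peaks are longer than any at the Nk1 locus, the longest with 14859 bp.

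**Figure D3:**
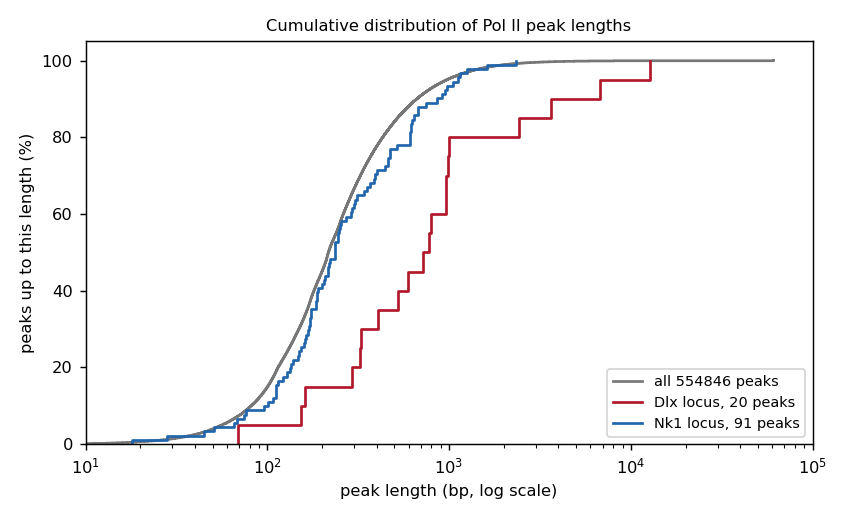
Cumulative distribution of peak length in bp, on a log axis, for the 20 peaks at Dlx (red), the 91 peaks at Nk1 (blue) and all 554846 peaks (grey). The Nk1 curve runs close to that of the whole list, with medians of 236 and 217 bp, and the Dlx curve lies to its right with a median of 746.5 bp.

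The same windows were drawn for all 37 genes with CRMs. By the share under peaks, Dlx ranked 2 and Nk1 ranked 32, with a median of 58.8% over the loci. The highest share was found at Chordin (85.5%), which encodes an extracellular BMP antagonist, and the lowest at Ecr (13.9%), which encodes a nuclear receptor. The loci nearest to Dlx in this share were Chordin and FoxJ1 (79.9%), which encodes a forkhead factor of ciliated cells. Those nearest to Nk1 were Z13 (37.2%) and Fic (39.5%). By the median length of peaks Dlx ranked 3 and Nk1 ranked 33, and by peaks per 10 kb Dlx (4.80) ranked 31 and Nk1 (9.99) ranked 10. The longest peak at Dlx ranked 7 among the longest peaks of the 37 loci, and that of Nk1 ranked 27. Without the longest peak of every locus, the share was 52.1% at Dlx and 34.5% at Nk1, and Dlx ranked 8 and Nk1 ranked 24. With the CRM span alone and no flank, Dlx ranked 4.

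Among Dlx, Nk1 and 8 other homeobox genes chosen by name, Dlx had the highest share under peaks. Atbf1 (62.8%) and Sip1 (58.9%), whose proteins carry zinc fingers beside homeodomains, were not counted in this set. Unc41 (48.1%) was not in the chosen list either, for no reason given, so the list may not hold every homeobox gene of the study. Its share lies below that of Dlx and above that of Nk1. The other 8 genes ranged from 17.5% to 74.7% with a median of 54.2%. Of these, 6 lay above Nk1, namely Not (74.7%), Lim1 (70.2%), IrxA (67.0%), Nk22 (58.5%), Gsc (49.9%) and Prox (49.6%), and Six12 (25.1%) and Hnf1 (17.5%) lay below. Nk22, like Nk1 a gene of the NK class, had a longest peak of 9915 bp and peaks with a median length of 319 bp, against 2342 and 236 bp at Nk1. IrxA held the longest peak of the homeobox loci, 23028 bp. At Prox, with 11.2 peaks per 10 kb against 9.99 at Nk1, the longest was 1669 bp. Since each locus is 1 region in 1 pooled list, none of these orders carries an error.

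**Figure D4:**
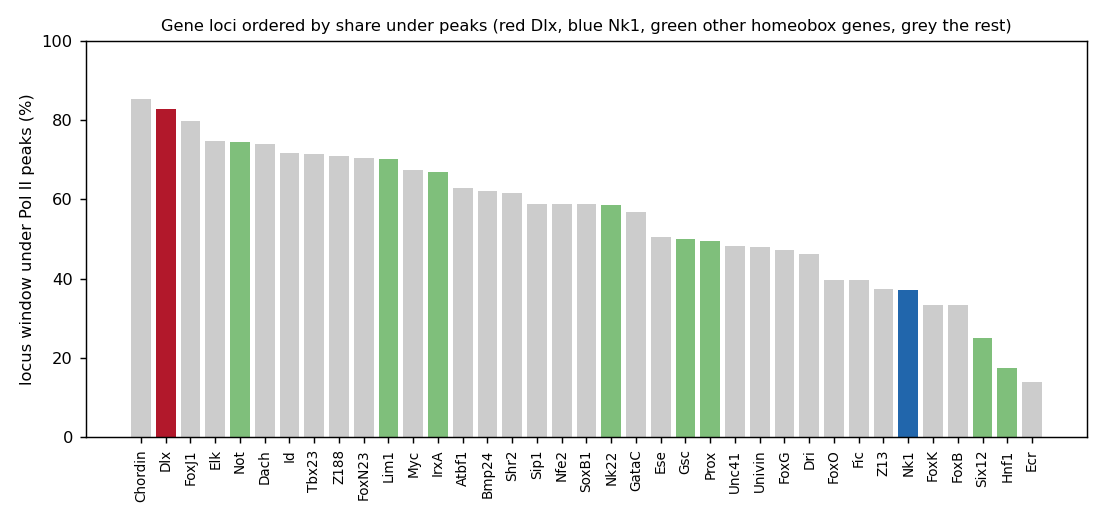
Percent of the locus window (CRM span plus 2 kb on each side) under Pol II peaks for the 37 genes with CRMs, in descending order. Dlx is in red, Nk1 in blue and the 8 other homeobox genes compared in the text in green. Dlx (82.8%) stands next to Chordin (85.5%) at the upper end and Nk1 (37.0%) near the lower end.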

How the data were processed

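The data were Pol II peaks of 20 h embryos, from 3 ChIP samples and as many inputs. Per the labels, CASAVA 1.8, Bowtie 1.0.1 and MACS 1.4.2 were used, whereas the methods of the study name Bowtie 2 for alignment to genome version 3.1. The authors combined the replicates and called peaks against the input with default settings. The deposited positions are in bp, carry no score, signal or count, and were read as BED intervals. Total counts per sample were not analysed here.

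CRM names, positions and activity classes came from the table of the study, and none of its expression or signal values was used. CRM positions were taken as given there, and CRM length is end minus start. Positions of peaks are printed counted from 1.

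Coverage is the number of bases of a region under a peak. With 1 pooled list no test was made. The code was tested on simulated data, where 0 of 500 windows gave a covered length other than that from counting single bases. Alternatives concerned minimum peak length, minimum overlap, flanks, joining of peaks, CRM starts, overlapping CRMs and the longest peak of each locus.

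All 21 CRMs could be named, with the 3 longest peaks of each locus, peaks of at least 1000 bp and peaks shared by CRMs. Other loci were named if highest, lowest, nearest in coverage or homeobox genes. The members and lists were chosen with earlier results of these data known. Python 3.11.15, numpy 2.4.6 and matplotlib 3.10.9 were used.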

Additional observations from a re-analysis of the deposited data

How the results depend on the processing

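No paired analysis was possible because peaks were called on combined samples, which also means that no replicate could be left out. Of 103 recomputed values, 93 stayed within the limits set for them. These were 1.5 times for counts and ranks and the SD over CRMs for the reporter classes. For shares the limit was a 95% Wilson interval counted over 1 kb stretches. Neighbouring stretches, like neighbouring bases, are not independent, as 1 peak can cover several, so the interval is only a working limit. Some settings could hardly move a value, so 93 does not measure stability. No Dlx peak is shorter than 50 bp, and counting CRM starts from 1 shifts them by 1 bp. Without the longest peak of each locus, the share of the Dlx window under peaks was 52.1%, its rank 8 (Nk1 24), its lead over Nk1 17.6 percentage points in place of 45.8, the mean coverage of its CRMs 36.1%, below the 38.2% of the Nk1 CRMs, the number covered over at least 50% was 4 (Nk1 3), and the difference between active and inactive Dlx CRMs was -22.2 points, by construction, since 4 of the 8 CRMs touch that peak. Without flanks Dlx ranked 4. With peaks of at least 300 bp, Nk1 kept 35 peaks, 26.9% of its window and 1 CRM covered over at least 50%. Dlx exceeded Nk1 in the share of the window in each of the 9 settings run, by 17.6 to 54.3 points, and in the mean coverage of CRMs in 7 of 8, all but that without the longest peaks. The list has no score, so peak length stood in for a stricter threshold.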
